A study of Rattus norvegicus with 9 samples.

Results

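The miR-17-92 cluster and its paralogs are related miRNAs, cut from shared primary transcripts. In rat serum, 9 mature miRNAs of this family were found among the 276 miRNAs of the table. They were taken by name alone, as every miRNA called miR-17, miR-18a, miR-19a, miR-19b, miR-20a, miR-20b, miR-92a, miR-93, miR-106b or miR-25, whichever arm of the hairpin it came from. The 9 were miR-17-5p, miR-18a-5p (rno-miR-18a-5p in the table, rno for rat), miR-18a-3p, miR-19b-3p (rno-miR-19b-3p), miR-20a-5p, miR-92a-3p, miR-93-5p, miR-93-3p and miR-25-3p (rno-miR-25-3p). No miRNA of the table was named miR-19a, miR-20b or miR-106b. The family was carried by miR-92a-3p, with 6574 of its 7243 reads (90.8%). Of the 669 reads of the other 8 members, 548 (81.9%) came from the serum of 1 sham rat and 39 (5.83%) from all 6 PAB rats together. No member passed edgeR's test between the groups with the scaling used, which called 1.23% of all miRNAs tested as lower in the PAB group. miR-18a-5p passed it with 2 other scalings and miR-19b-3p with 1 of them, which called 3.7% and 14.2% of all as lower. Of the 219 reads of miR-18a-5p, however, 216 came from 1 sham rat. It was kept for testing only through 2 sham libraries and 1 PAB read, so its calls are tied to the sham group. miR-19b-3p, with reads in 2 PAB libraries, was also kept only with sham libraries, so its call is tied to them too.

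The study compared wild-type male Sprague-Dawley rats after pulmonary artery banding (PAB, 6 rats) with rats after a sham operation (3 rats). A band that narrows the pulmonary artery raises the pressure load of the right ventricle. The rats were 4 weeks old at surgery, and serum was taken 4 weeks later. Small RNA of the serum was sequenced, with 1 library per labelled rat and reads of 50 bases. The miRNAs of serum come from blood cells, vessels and organs, so that release from fewer cells and less miRNA per cell cannot be told apart.

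The miR-17-92 primary transcript is induced by Myc and E2F factors and is known for driving proliferation in lymphocytes, tumours and the growing heart. Within a seed family the miRNAs share bases 2 to 8, which pair with target mRNAs. miR-17 and miR-20a repress the cell cycle inhibitor p21 and the bone morphogenetic protein receptor Bmpr2, whose loss causes hereditary pulmonary arterial hypertension in humans. miR-18a represses connective tissue growth factor, and miR-92a represses integrin alpha5 and Klf2 in endothelium. The paralogous miR-106b-25 cluster, which also holds miR-93, lies within the Mcm7 gene, and miR-25 represses the calcium pump SERCA2a in mouse heart.

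The mature sequences of all 9 members were matched by name in RefSeq (build GRCr8). Those of 7 members are shown with the seed, bases 2 to 8, in capitals, since the seed sets the groups used here. On chromosome 15, plus strand, 5 precursors (Mir17, Mir18a, Mir20a, Mir19b1 and Mir92a1) hold 6 of the members within 762 bases, from 98587861 to 98588622. On chromosome 12, minus strand, Mir93 and Mir25 lie within Mcm7, with mature bases from 22156652 to 22156916. On chromosome X, minus strand, 3 precursors encode second copies of miR-17-5p, miR-19b-3p and miR-92a-3p with the same mature bases, so reads of these 3 cannot be assigned to a chromosome.
miR-17-5p: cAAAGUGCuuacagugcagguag
miR-20a-5p: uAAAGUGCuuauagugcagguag
miR-93-5p: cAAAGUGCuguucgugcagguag
miR-18a-5p: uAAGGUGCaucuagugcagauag
miR-19b-3p: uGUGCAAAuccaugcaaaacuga
miR-92a-3p: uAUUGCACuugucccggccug
miR-25-3p: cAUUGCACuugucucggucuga
miR-92b-3p: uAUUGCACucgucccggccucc
miR-17-5p, miR-20a-5p and miR-93-5p share the seed AAAGUGC, and miR-92a-3p and miR-25-3p share AUUGCAC. Counting from 1 at the 5′ end, miR-17-5p and miR-20a-5p differ at 2 of 23 positions (C1U and C12U). miR-92b-3p is no member and lies on chromosome 2, and is shown because it has the seed of miR-92a-3p and differs from it at 2 of the 21 positions compared (U10C and G21C). How the authors assigned reads that fit several of these sequences is not given in the sources used here, so reads may be shared between near-identical members.

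The libraries held 19477 to 64455 miRNA reads in the PAB group and 56231 to 65313 in the sham group, and miRNA reads were 0.101% to 0.412% (PAB) and 0.332% to 0.517% (sham) of the library totals implied by the authors' RPM (a count divided by its library's total and scaled). Sham libraries 1 and 2 stood apart, with 173 and 217 miRNAs detected, against 81 to 131 in the PAB libraries and 129 in sham library 3. PCR reads without molecular identifiers are not independent molecules, so that the intervals and floors given here cover counting error only. The replicates are labelled as separate rats, and the p-values measure the spread between them.

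miR-92a-3p, a miRNA of red blood cells, platelets and endothelium, was the member present in every library, at rank 14 of 276 by mean share of the miRNA reads. It had 576, 1038, 643, 898, 128 and 76 reads across PAB libraries 1 to 6, against 1084, 968 and 1163 across sham libraries 1 to 3. This is 29.9, 66.4, 41.5, 58.6, 6.68 and 5.92 RPM in the PAB group, against 85.9, 57.8 and 68.6 RPM in the sham group. PAB libraries 5 and 6 were the lowest, 4 of 6 PAB libraries were below every sham library, and the groups overlapped through PAB libraries 2 and 4. The mean was 34.8 ± 25.5 RPM across the PAB libraries (SD, n = 6), against 70.8 ± 14.1 RPM across the sham libraries (SD, n = 3). The log2(RPM + 0.1) values differed by −1.53, and the exact two-sided permutation test, with 84 arrangements of the libraries, gave p = 0.119 (adjusted p = 0.261 over all 162 miRNAs tested).
As a share of the miRNA reads alone, the group means lay within 1 SD of each other. miR-92a-3p took 1.54% ± 1.12 of the miRNA reads across PAB libraries (SD, n = 6), against 1.74% ± 0.299 across sham libraries (SD, n = 3). The highest share of all was in PAB library 1, at 2.96% (95% Wilson interval 2.73% to 3.20%). The lowest were 0.212% (0.178% to 0.251%) in PAB library 5 and 0.255% (0.204% to 0.319%) in PAB library 6, whose intervals lay below those of the other 7 libraries. In edgeR's quasi-likelihood test on the reads, with TMM normalization, the log2 fold change of PAB against sham (log2FC) was 0.13 (standard error 1.52, adjusted p = 0.982). Its sign changed with the scaling, at −0.17 with miRNA read totals in place of TMM and −1.02 with the totals behind the RPM values. With 1 library left out it lay between −0.24, without sham library 2, and 1.19, without sham library 3.
Markers of red blood cells differed between the same libraries. For miR-16-5p, chosen after its values were seen, PAB libraries 5 and 6 held 1541 and 2440 reads, against 2 to 5 reads in the other 4 PAB libraries and 59, 582 and 2 in sham libraries 1 to 3. For miR-451-5p, which defines red blood cells, PAB libraries 5 and 6 held 3 and 233 reads, 435 to 1474 reads in the other 4, and 14, 31 and 852 reads in the sham group. miR-486, also of red blood cells, had another pattern, with 841, 1, 78, 356, 823 and 5 reads across PAB libraries 1 to 6, against 13, 21 and 4 across sham libraries 1 to 3. The part of these miRNAs' sources in the level of miR-92a-3p was not tested.

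**Figure D1:**
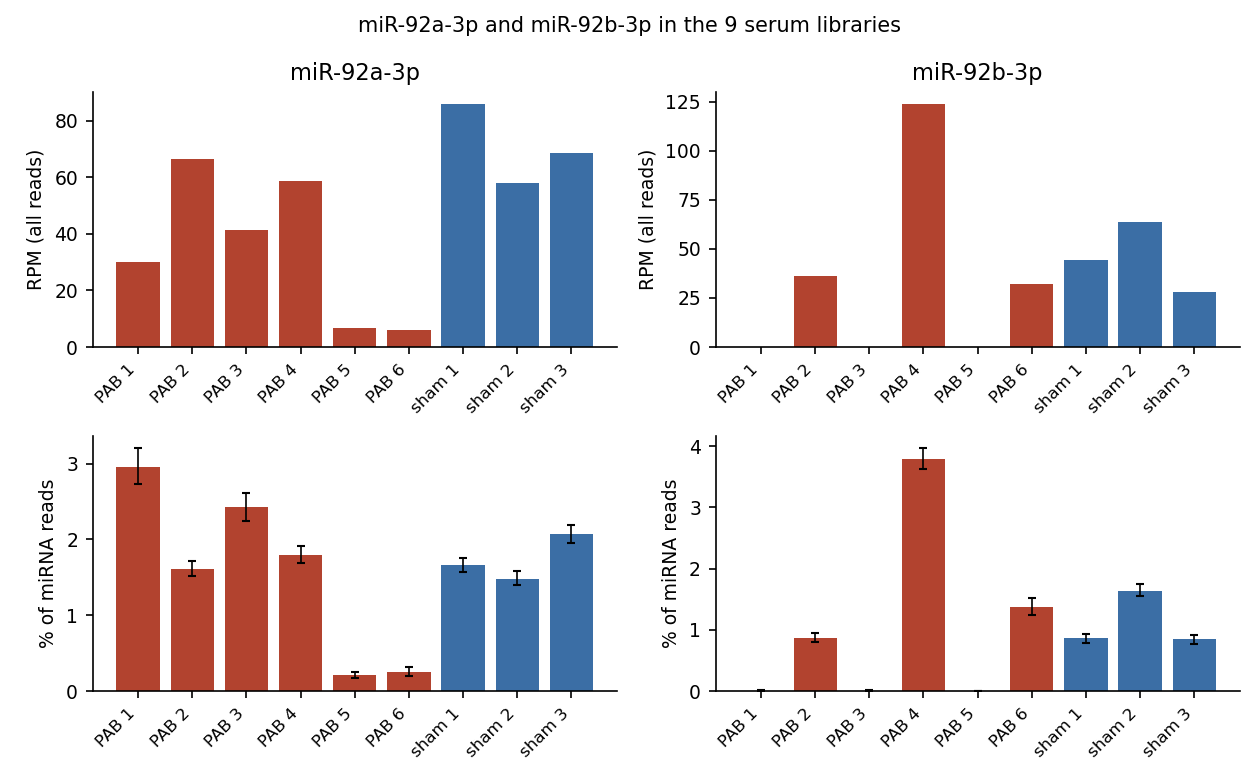
miR-92a-3p (left) and miR-92b-3p (right) in each serum library, in RPM (top) and as percent of the miRNA reads (bottom, bars on the shares are 95% Wilson intervals). PAB libraries (red) are left of sham libraries (blue). miR-92a-3p was lowest in PAB libraries 5 and 6, at 6.68 and 5.92 RPM, and miR-92b-3p was at 0 reads in PAB libraries 1, 3 and 5.

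miR-92b-3p, of the same seed but from a gene of its own, was the other abundant miRNA with this seed, with 4973 reads. It had 0, 563, 0, 1895, 0 and 410 reads across PAB libraries 1 to 6, against 561, 1070 and 474 across sham libraries 1 to 3. PAB libraries 1, 3 and 5 thus lacked it, while miR-92a-3p had 576, 643 and 128 reads there. A count of 0 allows shares of up to 0.0154%, 0.0113% and 0.00496% of the miRNA reads in these 3 libraries, against 0.843% to 1.64% in the sham libraries. Of the 3 PAB libraries that held it, PAB libraries 2 and 6 were within the sham range, at 0.873% and 1.37%. PAB library 4 was above it, at 3.80%, so PAB libraries lay below, within and above the sham range. Its log2FC was 0.30 (standard error 2.21, adjusted p = 0.982 from edgeR), and its log2(RPM + 0.1) differed by −4.24 (exact permutation test, p = 0.31, adjusted p = 0.496). miR-32-5p, also of this seed, had 6 reads in all, 3 in each group, and edgeR gave it a log2FC of 0.18 (adjusted p = 0.981).

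The members other than miR-92a-3p were scarce in the serum of the PAB group. Their summed reads were 5, 3, 3, 1, 7 and 20 in PAB libraries 1 to 6, and 73, 548 and 9 in sham libraries 1 to 3. PAB library 6 held more of them than sham library 3, so the groups overlapped. In RPM the sums ran between 0.065 and 1.56 in the PAB group and between 0.531 and 32.7 in the sham group. The number of members detected was 3, 3, 2, 2, 3 and 5 in the PAB libraries and 9, 8 and 4 in the sham libraries. At the depth of the smallest library, 19477 reads, the number to be expected was 1.39 to 4.53 in the PAB group and 6.67, 7.35 and 3.11 in sham libraries 1 to 3.
miR-92a-3p made up 79.2% to 99.9% of the family's reads in the PAB libraries and 93.7%, 63.9% and 99.2% in sham libraries 1 to 3. The family as a whole took 1.56% ± 1.11 of the miRNA reads across PAB libraries (SD, n = 6), against 2.06% ± 0.278 across sham libraries (SD, n = 3). In RPM the PAB libraries had 35.3 ± 25.2 (SD, n = 6) and the sham libraries 83.8 ± 12.7 (SD, n = 3). These sums get no test, since the members were chosen together.

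**Figure D2:**
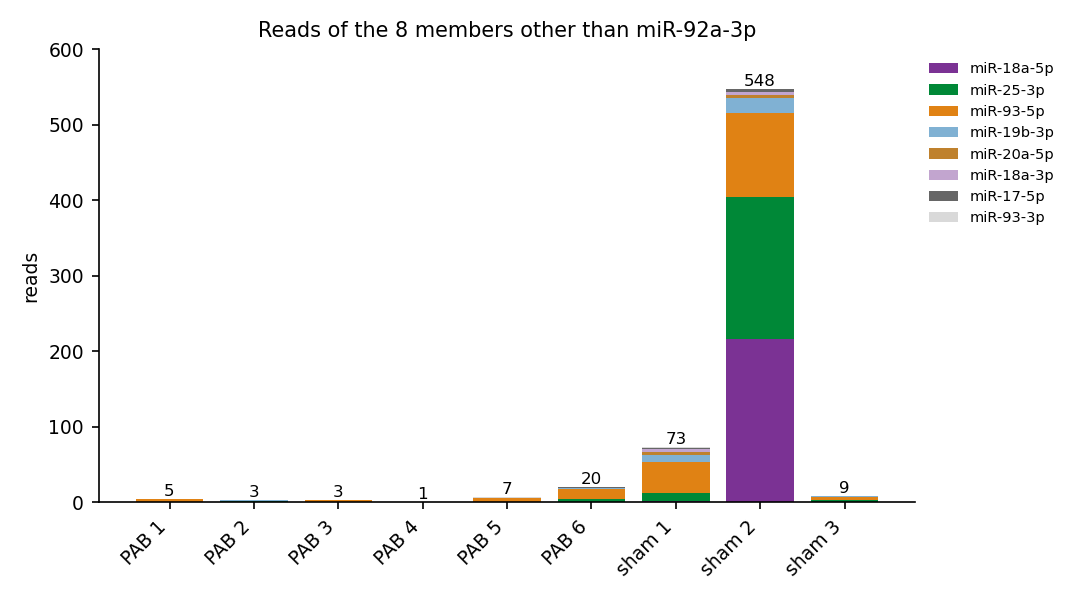
Reads of the 8 members other than miR-92a-3p in each library, stacked by miRNA, with the sum above each bar. Sham library 2 held 548 of the 669 reads, most of them miR-18a-5p, miR-25-3p and miR-93-5p, while the 6 PAB libraries held 1 to 20.

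Within the chromosome 15 cluster, miR-18a-5p was the second most read member, and nearly all of it came from 1 rat. Among PAB libraries 1 to 6 the first held 1 read and the other 5 held 0, against 2, 216 and 0 reads in sham libraries 1 to 3. The pooled ratio of PAB to sham RPM was 0.00218, with an exact counting interval of 5.48e-05 to 0.0122. At the depth of the smallest library, the 216 reads of sham library 2 would be 64.5. The hairpin of miR-18a, with both mature arms in capitals, is shown because both arms were found in serum.
Mir18a hairpin: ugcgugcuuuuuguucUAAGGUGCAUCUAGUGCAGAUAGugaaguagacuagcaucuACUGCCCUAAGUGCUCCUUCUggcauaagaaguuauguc
The 3p arm, miR-18a-3p, had 0 reads in all 6 PAB libraries and 3, 4 and 0 reads in the sham libraries. The arms were thus similar in sham library 1, at 2 reads of miR-18a-5p and 3 of miR-18a-3p, and far apart in sham library 2, at 216 and 4. The mean of miR-18a-3p in the sham group was 0.159 ± 0.138 RPM (SD, n = 3). This is 5.18 times 0.0307 RPM, the floor that 3 counts over all PAB libraries set. It rests on 7 reads, and the counting interval of the pooled ratio of PAB to sham RPM reached up to 0.329.
miR-17-5p and miR-20a-5p, which lie on either side of miR-18a in the same transcript and repress p21 and Bmpr2, had 4 and 5 reads in sham library 2 beside the 216 of miR-18a-5p. miR-17-5p had 1 read in PAB library 6 and 0 in the other 5, against 2, 4 and 0 reads in sham libraries 1 to 3. Its pooled ratio of PAB to sham RPM was 0.079 (counting interval 0.00172 to 0.652). miR-20a-5p had 0 reads in all 6 PAB libraries and 4, 5 and 0 reads in the sham libraries. The sham libraries averaged 0.205 ± 0.178 RPM (SD, n = 3), which is 6.69 times the same floor. This mean rests on 9 reads, and the counting interval of the pooled ratio reached up to 0.24. These 2 miRNAs, which differ at 2 positions, were therefore present at similar low counts in the same sham libraries.
miR-19b-3p was the member of this cluster found in all 3 sham libraries beside miR-92a-3p. It had 0, 1, 0, 0, 0 and 2 reads across PAB libraries 1 to 6, against 10, 20 and 2 across sham libraries 1 to 3. The means were 0.0367 ± 0.0638 RPM across the PAB libraries (SD, n = 6) and 0.702 ± 0.544 RPM across the sham libraries (SD, n = 3). In RPM, 5 of 6 PAB libraries were below every sham library. Those 5 held 0 or 1 read, against 2 in sham library 3, the lowest of the sham group, and 2 in PAB library 6.

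Of the miR-106b-25 cluster, miR-93-5p and miR-25-3p were also highest in sham library 2. miR-93-5p, of the miR-17 seed, had 4, 0, 3, 1, 6 and 12 reads across PAB libraries 1 to 6, against 41, 111 and 4 across sham libraries 1 to 3. In RPM this is 0.286 ± 0.337 across the PAB libraries (SD, n = 6), against 3.37 ± 3.20 across the sham libraries (SD, n = 3). Its 3p arm, miR-93-3p, had 1 read in PAB library 5 and 1 in sham library 1, too few for a ratio.
miR-25-3p, the SERCA2a repressor, had 0, 2, 0, 0, 0 and 5 reads across PAB libraries 1 to 6. In sham libraries 1 to 3 it had 10, 188 and 3 reads, so that sham library 2 held 90.4% of its 208 reads. The means were 0.0863 ± 0.157 RPM across the PAB libraries (SD, n = 6), against 4.07 ± 6.21 RPM across the sham libraries (SD, n = 3). PAB library 6 was the highest PAB library for miR-93-5p, miR-25-3p, miR-19b-3p and miR-17-5p alike, and the lowest in RPM for miR-92a-3p.
miR-25-3p and miR-92a-3p, which share the seed AUUGCAC, therefore differed in their spread over the libraries. The shares of their summed RPM in each library overlapped by 23.8%, against 89.5% between miR-25-3p and miR-18a-5p, which have different seeds and lie on different chromosomes. miR-17-5p, with only 7 reads in all, overlapped by 90.3% with miR-19b-3p, of another seed. With miR-93-5p, of its own seed, it overlapped by 85.7%, so pairs of the same seed were found at both high and low overlap.

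**Figure D3:**
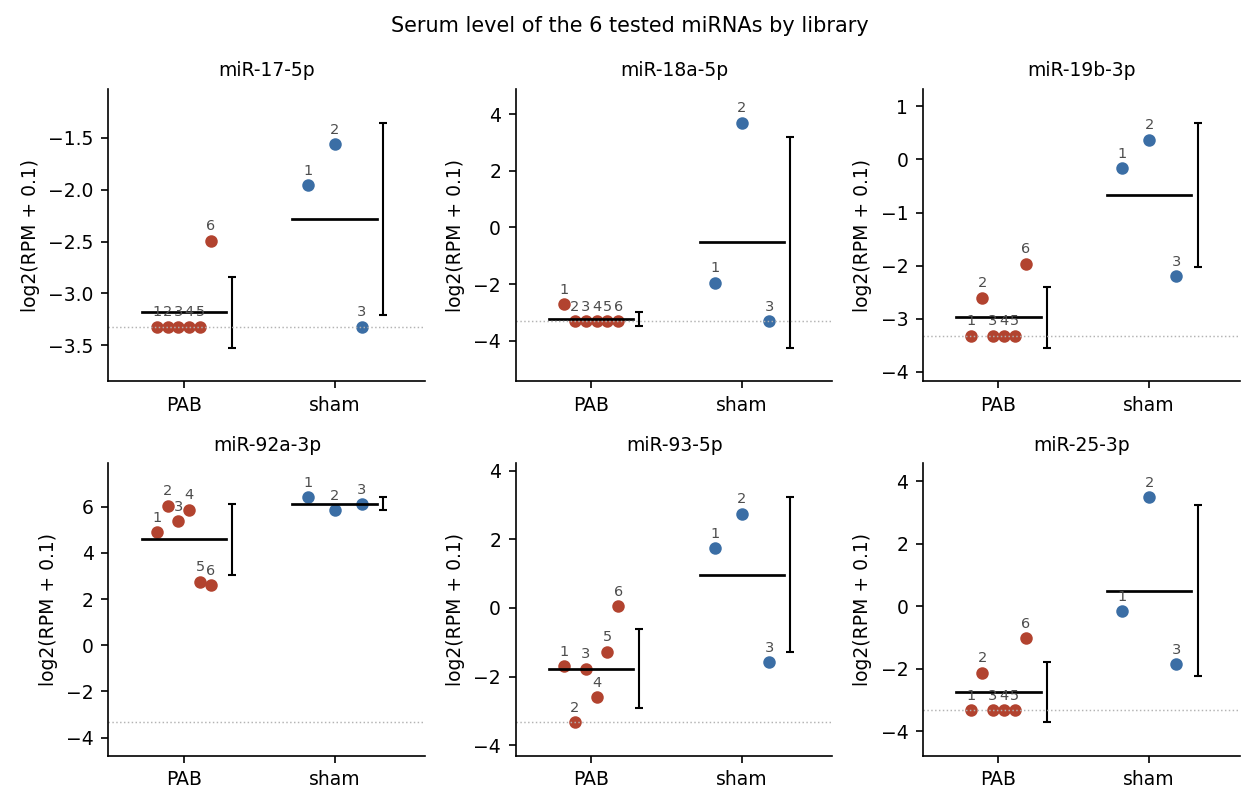
log2(RPM + 0.1) of the 6 tested miRNAs in each library (points, numbered by library), with the group mean (line) and SD (bar). The dotted line marks 0 reads. For all but miR-92a-3p, sham libraries 1 and 2 were above every PAB library, while sham library 3 lay within the range of the PAB group.

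The comparison of PAB with sham serum asked which of these miRNAs changed with the load of the right ventricle. It was made on the reads with edgeR over the 162 miRNAs detected in 3 or more of the 9 libraries, which kept 6 of the 9 members. Because miR-17-5p and miR-18a-5p passed this filter through sham libraries 1 and 2 and 1 PAB read each, their place among the tested is itself tied to the sham group. miR-19b-3p and miR-25-3p had reads in 2 PAB libraries each, so they too passed only with sham libraries, and their tests share this tie. Calls needed both an adjusted p ≤ 0.05 and |log2FC| ≥ 1, which gave 1.23% of all miRNAs tested as lower and 0% as higher in the PAB group, and 0 of the 6 members. At an unadjusted p under 0.05, edgeR had 3 of the 6 members lower, where 10.5% of all miRNAs tested were lower and 4.32% were higher. These 3, miR-18a-5p, miR-25-3p and miR-19b-3p, all passed the filter only with sham libraries. DESeq2 called 0 members, where 2.47% of all were lower and 5.56% higher, and had 1 member at an unadjusted p under 0.05. It gave no p for miR-18a-5p and miR-25-3p and no adjusted p for miR-17-5p.
miR-18a-5p had the lowest log2FC of the members, −5.94 (standard error 1.81, adjusted p = 0.071 from edgeR). miR-25-3p followed with −3.86 (standard error 1.53, adjusted p = 0.188) and miR-19b-3p with −2.59 (standard error 1.12, adjusted p = 0.22). miR-93-5p had −1.53 (standard error 1.43, adjusted p = 0.641) and miR-17-5p −1.47 (standard error 1.18, adjusted p = 0.56). The median of the 6 was −2.06, against −0.15 over all 162 miRNAs, and 5 of the 6 were below 0, against 53.1% of all. This comparison is no test of the family. miR-17-5p, miR-18a-5p, miR-19b-3p and miR-25-3p passed the filter only with sham libraries, which by itself favours values below 0. The fitted values of miR-18a-5p and miR-17-5p, with 1 read in the PAB group, depend on the prior count of the fit and are no bounds.
On the RPM scale, 0 of 6 members had every PAB library below every sham library, where 9.88% of all miRNAs tested did. The differences of log2(RPM + 0.1) were −3.24 for miR-25-3p and −2.31 for miR-19b-3p, each with p = 0.0238 in the exact two-sided permutation test (adjusted p = 0.148). They were −2.74 for miR-93-5p (exact p = 0.0357, adjusted p = 0.156), and −2.70 for miR-18a-5p and −0.90 for miR-17-5p (exact p = 0.0833, adjusted p = 0.201 each). Without sham library 2 the differences were −0.58 for miR-18a-5p, −1.73 for miR-25-3p, −1.85 for miR-93-5p, −1.80 for miR-19b-3p and −0.55 for miR-17-5p. Without sham library 3 they were −4.09, −4.41, −4.02, −3.08 and −1.43 in the same order of miRNAs. Their size also moved with the pseudocount, as miR-18a-5p had −4.36 with 0.01 RPM and −1.32 with 1 RPM, and miR-19b-3p −4.48 and −0.66. So 3 of the 6 had an unadjusted exact p under 0.05, where 24.7% of all miRNAs tested did with the PAB group lower, and 0 of 162 passed after adjustment. The smallest p that 84 arrangements allow is 0.0119, and 0.0357 without 1 sham library, so that an adjusted p under 0.05 would need many miRNAs at that minimum at once. With the 2-sided p taken as the doubled smaller tail instead, miR-19b-3p and miR-25-3p had an exact p of 0.0476 and miR-93-5p of 0.0714, so that 2 of the 6 were under 0.05, where 17.9% of all miRNAs tested were with the PAB group lower.

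**Figure D4:**
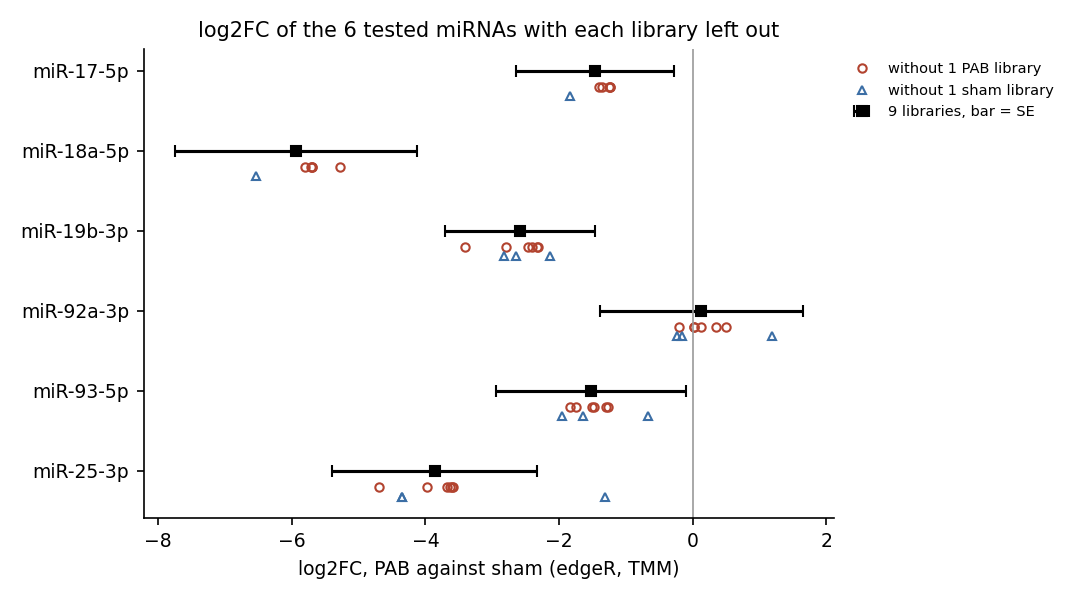
log2FC of PAB against sham from edgeR for the 6 tested miRNAs with all 9 libraries (squares, bars are standard errors), and with 1 PAB library (circles) or 1 sham library (triangles) left out. Without sham library 2, miR-25-3p was at −1.31, against −3.86 with all 9, and miR-17-5p and miR-18a-5p could not be tested.

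Leaving out sham libraries changed the members to different degrees. Without sham library 2 the log2FC was −1.31 for miR-25-3p, −0.67 for miR-93-5p and −2.14 for miR-19b-3p (adjusted p = 0.884, 0.996 and 0.758 from edgeR). miR-18a-5p and miR-17-5p were then detected in fewer than 3 libraries and left untested, as they were without sham library 1. The same held for miR-18a-5p without PAB library 1 and for miR-17-5p without PAB library 6. Without sham library 3, in contrast, miR-18a-5p was called lower, with −6.54 (adjusted p = 0.0347 from edgeR), in a fit that called 1.32% of the miRNAs tested as lower. Without sham library 1 the log2FC was −4.34 for miR-25-3p, −1.64 for miR-93-5p and −2.65 for miR-19b-3p, each at or below its value with all 9 libraries. With sham library 3 as the only sham library, miR-93-5p had a log2FC of 0.30, miR-25-3p of −1.33 and miR-19b-3p of −1.81, on the assumption that the lone library varies like the others.
The scaling moved the whole comparison. Over all 162 miRNAs the log2FC had a median of −0.15 with TMM, −0.85 with miRNA read totals and −1.54 with the totals behind the RPM values, and the median of the 6 members was −2.06, −2.97 and −3.81. All 6 members were below 0 with the totals behind the RPM values, where 72.2% of all miRNAs tested were. These figures, too, include the members that passed the filter only with sham libraries. With miRNA read totals, miR-18a-5p was called lower (−7.06, adjusted p = 0.0391), where 3.7% of all miRNAs tested were. With the totals behind the RPM values, miR-18a-5p (−7.98, adjusted p = 0.0199) and miR-19b-3p (−4.08, adjusted p = 0.0418) were called lower by edgeR, where 14.2% of all were.

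**Figure D5:**
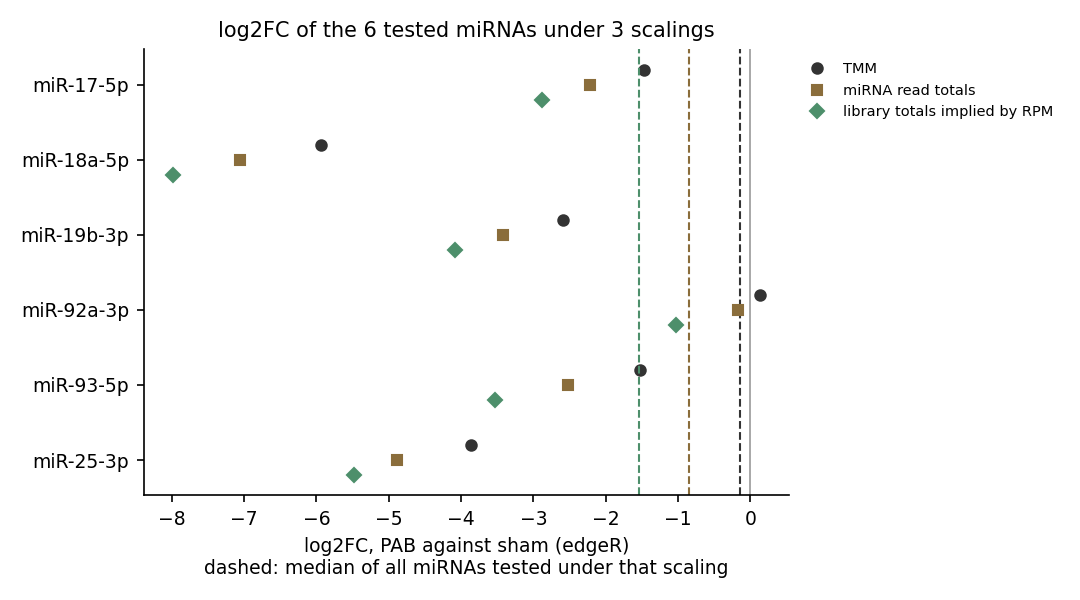
log2FC of PAB against sham from edgeR for the 6 tested miRNAs under TMM (circles), miRNA read totals (squares) and library totals implied by RPM (diamonds). Dashed lines mark the median of all 162 miRNAs under each scaling, at −0.15, −0.85 and −1.54, and miR-92a-3p stayed to the right of that median under each.

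Reads packed into 1 library were not particular to this family. Among the 117 miRNAs with at least 50 reads, 29 (24.8%) had at least 80% of them in 1 library, and of the 4 members with that many reads miR-18a-5p and miR-25-3p did. Sham library 2 held the most reads of 31.6% of these 117 miRNAs, and of miR-18a-5p, miR-25-3p and miR-93-5p among the 4 members.
The miRNAs most like each member were sought by the overlap of their RPM over the 9 libraries, among other miRNAs with at least 50 reads. miR-18a-5p was most like miR-185-5p (99.3%), let-7f-1-3p (99.0%) and a miRNA predicted by the authors (98.4%), which had 707 of 714, 205 of 206 and 368 of 368 reads in sham library 2. miR-25-3p was most like miR-185-5p (89.2%), let-7f-1-3p (88.9%) and miR-24-2-5p (88.6%). miR-93-5p was most like the endothelial miR-221-3p (93.2%), then the muscle miR-499-5p and miR-23b-3p (92.6%), each highest in sham library 2 and next in sham library 1. miR-92a-3p was most like miR-23a-3p (89.1%), miR-191a-5p (80.2%) and miR-328a-3p (78.8%), which are abundant in most libraries.

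Markers of the cells that could shed these miRNAs differed between the same libraries. Red blood cell miRNAs, with 5 matched, took 1.86% to 10.6% of the miRNA reads in the PAB group and 0.171% to 2.14% in the sham group. The log2 of miR-451-5p over miR-23a-3p, in use as a measure of haemolysis, was −7.45 in PAB library 5 and −2.11 to −0.49 in the other PAB libraries. It was −8.07 and −6.22 in sham libraries 1 and 2, where the scarce members were highest, and −1.59 in sham library 3. Other miRNAs of the red blood cell list did not follow this ratio, as miR-185-5p, the miRNA most like miR-18a-5p, had 707 of its 714 reads in sham library 2, and miR-16-5p had 1541 reads in PAB library 5 and 582 in sham library 2. Endothelial miRNAs, with 5 matched, took 0.0281% to 1.62% in the PAB group and 0.521% to 2.64% in the sham group, and their defining miR-126a-3p had 12 to 425 reads in PAB and 227 to 870 in sham libraries. Platelet miRNAs, with 6 matched and miR-126a and miR-223 shared with other lists, took 11.3% to 32.4% in PAB and 26.2% to 46.5% in sham libraries, and white blood cell miRNAs, with 5 matched, 0.924% to 10.4% in PAB and 1.27% to 7.56% in sham libraries. Liver miRNAs, with 3 matched, took 0% to 6.44% in PAB and 0.822% to 4.91% in sham libraries, and those of heart and skeletal muscle, with 5 matched, 0.131% to 3.72% in PAB and 0.18% to 2.46% in sham libraries. The part of these sources in the values of the miR-17-92 family was not tested.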

How the data were processed

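Serum small RNA of 6 PAB and 3 sham rats was measured, 1 library per rat. The authors deposited raw read counts beside RPM for 276 miRNAs, 58 of them predicted by the authors. Per the study's methods, clean reads were aligned to the rat genome with Bowtie, and compared with miRBase and Rfam. The submitters' processing notes name Bowtie2 2.2.9, DESeq2 and the human build GRCh38.p13. Deposited RPM values are counts over a library total, recovered here from the ratio of the 2 columns.

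Counts were tested with edgeR 4.0.16 (TMM, quasi-likelihood with legacy = TRUE, Benjamini-Hochberg adjustment) in R 4.3.3, over miRNAs above 0 in at least 3 libraries. The standard error is |log2FC| over the square root of F. RPM was tested as log2(RPM + 0.1), which understates the change of low miRNAs, by exact permutation, with the p of both sides from the absolute difference of means. The overlap of 2 miRNAs is the sum over libraries of the smaller of their 2 RPM shares. Every member was named, with relatives of the same seed or cluster, the 3 most alike miRNAs of each member with at least 50 reads, and marker lists by cell type. Members and lists were chosen with earlier results of these data known. Alternatives were DESeq2 1.42.0, other scalings and filters, a block by library number, other pseudocounts, each library left out, and, chosen after seeing the data, edgeR with legacy = FALSE and the doubled smaller tail in the exact test. The edgeR and permutation procedures were tested on simulated data. For edgeR, recovery of known changes was required only at a dispersion far below the common dispersion of these data, 3.03. That check therefore does not show its power here. Floors are 3 counts over a group. Exact tests and sums used scipy 1.17.1 and pandas 2.3.3 under Python 3.11.15.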

Additional observations from a re-analysis of the deposited data

Results flagged for a closer look

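In the PAB group, 5 of the 7 members with reads had 1 library far above the other 5, by a gap of more than 0.625 of the group's range. PAB library 6 stood apart for miR-93-5p, at 0.935 RPM (12 reads), for miR-25-3p, at 0.39 RPM (5 reads), and for miR-17-5p, at 0.078 RPM (1 read). PAB library 1 stood apart for miR-18a-5p, at 0.052 RPM, and PAB library 5 for miR-93-3p, also at 0.052 RPM, each by 1 read. For miR-17-5p, miR-18a-5p and miR-93-3p the gap is that between 1 read and 0 reads. Of normally distributed values, chance alone gives such a gap in about 1 in 20 groups. That rate does not hold for skewed values or for a single read among zeros.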

How the results depend on the processing

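Over all miRNAs, edgeR called 0 higher and 2 lower in the PAB group. DESeq2 called 9 higher and 4 lower, and edgeR without a filter 1 and 10. The number lower was 6 with miRNA read totals and 23 with the totals implied by RPM. It was 0 with DESeq2's size factors, with at least 10 reads in 3 libraries, without sham libraries 1 and 2, and with legacy = FALSE, where 17, 5, 1 and 13 were lower at an unadjusted p under 0.05. With 1 library left out it was 0 to 2. Of the members, 1 was called with miRNA read totals and 2 with the totals implied by RPM, and 0 to 1 with 1 library left out. miR-18a-5p was then called at −7.06 and −7.98, and miR-19b-3p at −4.08 with the totals implied by RPM. With 1 library left out, miR-18a-5p had −6.54 to −5.27 in the 6 fits that tested it, none of which left out sham library 1, sham library 2 or PAB library 1, miR-25-3p −4.69 to −1.31, miR-19b-3p −3.40 to −2.14, miR-93-5p −1.96 to −0.67 and miR-17-5p −1.83 to −1.24.
The log2FC of miR-92a-3p changed sign, at −0.17 with miRNA read totals, −1.02 with the totals implied by RPM, −0.91 with the filter of 10 reads and −0.89 without sham libraries 1 and 2, and was −0.24 to 1.19 with 1 library left out. miR-93-5p changed sign, to 0.30, without sham libraries 1 and 2. The cause was not tested. DESeq2 gave no p for miR-18a-5p and miR-25-3p. Of 100 alternatives of the 6 log2FC, 85 kept the direction and stayed without a call. A further 3 kept the direction with no adjusted p from DESeq2. Fits in which a member fell below the filter are not among the 100. These include the fits without sham library 1 or sham library 2 for miR-18a-5p and miR-17-5p, so the count says little of their stability. All 78 alternatives of the exact tests on RPM kept their direction, but those with the doubled tail use the same difference and could not change it. That none passed after adjustment says little, since the smallest p is 0.0119 with 9 libraries. Their sizes moved, with 1 library left out, between −4.09 and −0.58 for miR-18a-5p, −4.41 and −1.73 for miR-25-3p, −4.02 and −1.85 for miR-93-5p, −3.08 and −1.80 for miR-19b-3p and −1.43 and −0.55 for miR-17-5p. The labels do not say that the library numbers pair the rats. Deviations of same-numbered libraries had correlations of −0.11, −0.33 and −0.065, but 3 libraries per group are too few to exclude a pairing. With the number as a replicate block over libraries 1 to 3 of each group, edgeR called 0 miRNAs lower and 0 members. The same held without the block on the same 6 libraries (15 and 25 lower at an unadjusted p under 0.05). The scarce members had 1 to 20 reads in each PAB library, which limits the precision of their ratios, and PAB libraries 2 and 5, with 64455 and 60505 miRNA reads, held 3 and 7 of them.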
